A study of Mus musculus with 6 samples.

Results

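Immediate-early genes and the AP-1 family were described in femur RNA of mice built to overexpress Wnt7b. The 10 genes were chosen by name as the core of these families and were found by Ensembl identifier among 22824 rows per library, and all 10 had a row. They were 4 Fos family genes (Fos, Fosb, Fosl1 and Fosl2), 3 Jun family genes (Jun, Junb and Jund), the related factor gene Atf3, and the immediate-early genes Egr1 and Ier2. The OE group held 3 libraries from homozygous C57BL/6 mice in which a 9.6 kb Dmp1 sequence drove Cre and switched on a Wnt7b allele at the R26 locus. That Dmp1 sequence is known to be active mainly in osteocytes and mature osteoblasts, which are a fraction of the cells of a femur. The Ctrl group held 3 libraries from littermates that also carried the R26 Wnt7b allele but no Cre. The labels state no age, sex or interval between death and RNA extraction. The labels do not say whether each library came from its own animal, so a p-value measures only how these 6 samples scatter, and that scatter may be technical.

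AP-1 is a dimer of leucine-zipper proteins. Jun proteins pair with each other or with Fos proteins and bind short DNA elements related to TGANTCA, where N is any base, while Fos proteins need a Jun partner. Immediate-early genes are transcribed within minutes of a stimulus without new protein synthesis, through factors such as SRF and CREB that are already present, and their transcripts decay quickly. In bone, Fos is required for osteoclast formation in mice, mice that overexpress Fosl1 or a short form of Fosb gain bone mass, and Fosl2 acts in both osteoblasts and osteoclasts. Dissection and cell dissociation are known to raise these transcripts, so their levels in a dissected tissue can also carry its handling.

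Sequence upstream of 4 members is shown to set side by side the letters near genes whose differences were positive (Jun and Atf3), negative (Junb) and close to 0 (Fos), none of which passed the test. RefSeq promoter entries on GRCm38.p6 matched 7 of the 10 members, and Egr1, Fosl1 and Ier2 were not matched. Each sequence runs 5′ to 3′ on the gene's strand and ends at the base before the RefSeq start. For Atf3 only 30 bases are shown, because an annotated exon overlaps the stretch. The RefSeq start of Atf3, 191183333, lies inside the gene span given below. Capitals mark matches to TGACGT (the short CREB element), TTACGTCA (the ATF site of Atf3), TGACATCA (the AP-1-like element of Jun), TGACGTCA, TGANTCA or the serum response (CArG) box.
Fos (chr12:85473740-85473889, plus strand): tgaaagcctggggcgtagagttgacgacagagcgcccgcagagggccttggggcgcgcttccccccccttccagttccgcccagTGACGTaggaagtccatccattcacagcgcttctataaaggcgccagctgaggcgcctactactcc
Jun (chr4:95052223-95052372, minus strand): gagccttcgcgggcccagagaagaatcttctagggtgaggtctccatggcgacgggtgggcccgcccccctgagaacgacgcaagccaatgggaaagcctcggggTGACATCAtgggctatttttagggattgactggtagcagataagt
Junb (chr8:84978749-84978898, minus strand): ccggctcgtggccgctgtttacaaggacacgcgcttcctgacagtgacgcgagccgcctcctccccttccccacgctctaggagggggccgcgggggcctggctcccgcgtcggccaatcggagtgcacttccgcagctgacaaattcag
Atf3 (chr1:191183334-191183363, minus strand): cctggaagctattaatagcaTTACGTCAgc
Both strands were searched over windows of 250 bases before to 50 bases after each start. TGACGT was in the windows of Fos and Atf3 and in 7.51% of all 32851 windows in the table. TTACGTCA, which contains the reverse complement of TGACGT in its last 6 bases, was in the window of Atf3 and in 0.499% of all windows. TGACATCA was in the window of Jun and in 3.62% of all. The full element TGACGTCA (1.79% of all), TGANTCA (7.81%) and the CArG box (1.63%) were in none of the 7 members' windows. Elements more than 250 bases before a start lie outside these windows, and Egr1, Fosl1 and Ier2 were not searched. The RefSeq starts of Fosl2 (32136472), Jund (70697739), Junb (84978748) and Fosb (19310045) also differ from where the gene spans given below begin on their strands. For Jund the whole window lies before the gene span, which begins at 70698949, so the sequence at that start was not searched. GCGNGGGCG, an element bound by EGR proteins, was in the windows of Fosb and Fosl2 and in 5.55% of all. For Junb, and for Jund, Fosb and Fosl2, which are not shown, none of the marked motifs was found. That says only that these letters are not in these windows. Fosl2 had a positive difference and Jund a negative one, and a link between motifs and direction was not tested. A match is a string of letters and not evidence of binding in these femurs.

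The libraries stand apart in ways that touch every result below. Values were in FPKM, a level scaled for transcript length and library size, so different genes can be set side by side. The step between the lowest values put the depth at an estimated 34700000 to 38900000 fragments in OE and 35300000 to 40800000 in Ctrl. Wnt7b, the gene that the conditional allele carries, stood at 2.49, 0.661 and 0.295 FPKM in OE 1, 2 and 3. It stood at 0.909 FPKM in the library labelled Ctrl 1, within the OE range, at 0.00833 FPKM in Ctrl 2, and was listed at 0 in Ctrl 3. Every direction between OE and Ctrl below therefore includes a control library whose label is in doubt, and the difference of each member tested is also given without it. In log2(FPKM + 1) over 12177 genes, OE 2 and the library labelled Ctrl 1 correlated at 0.989 and Ctrl 2 and Ctrl 3 at 0.990, as a description across genes, while OE 3 reached at most 0.948 with any other library. Femurs labelled as cleared of marrow and cartilage still held S100a8 and S100a9, neutrophil genes, at 7.25% to 16.3% of all FPKM in OE and 11.6% to 13.5% in Ctrl.

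None of the members passed the test between OE and Ctrl, and none separated the groups completely. Ier2 and Junb were lower on average in OE, Egr1, Atf3 and Jun were higher on average, and Fos was level. The test was limma on log2(FPKM + 1) with Benjamini-Hochberg adjustment over 12177 genes that reached 1 FPKM in 3 or more libraries. It called 0 of the 8 members tested at an adjusted p of 0.05, against 0.0% of all genes, and Fosb and Fosl1 fell below the filter. At an unadjusted p under 0.05 it called 1 member, Ier2, and 502 genes higher and 497 lower in OE among all genes, and limma without a trend called 0 genes at an adjusted p of 0.05 as well, with 523 and 473 at the unadjusted p. Groups did not overlap for 0 of the 8 members and for 13.6% of all genes tested. The median member difference was 0.05 on the log2 scale with 4 members positive and 4 negative, beside a median of -0.04 over all genes tested. In bulk RNA, fewer cells of a type and less RNA per cell cannot be told apart.

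**Figure D1:**
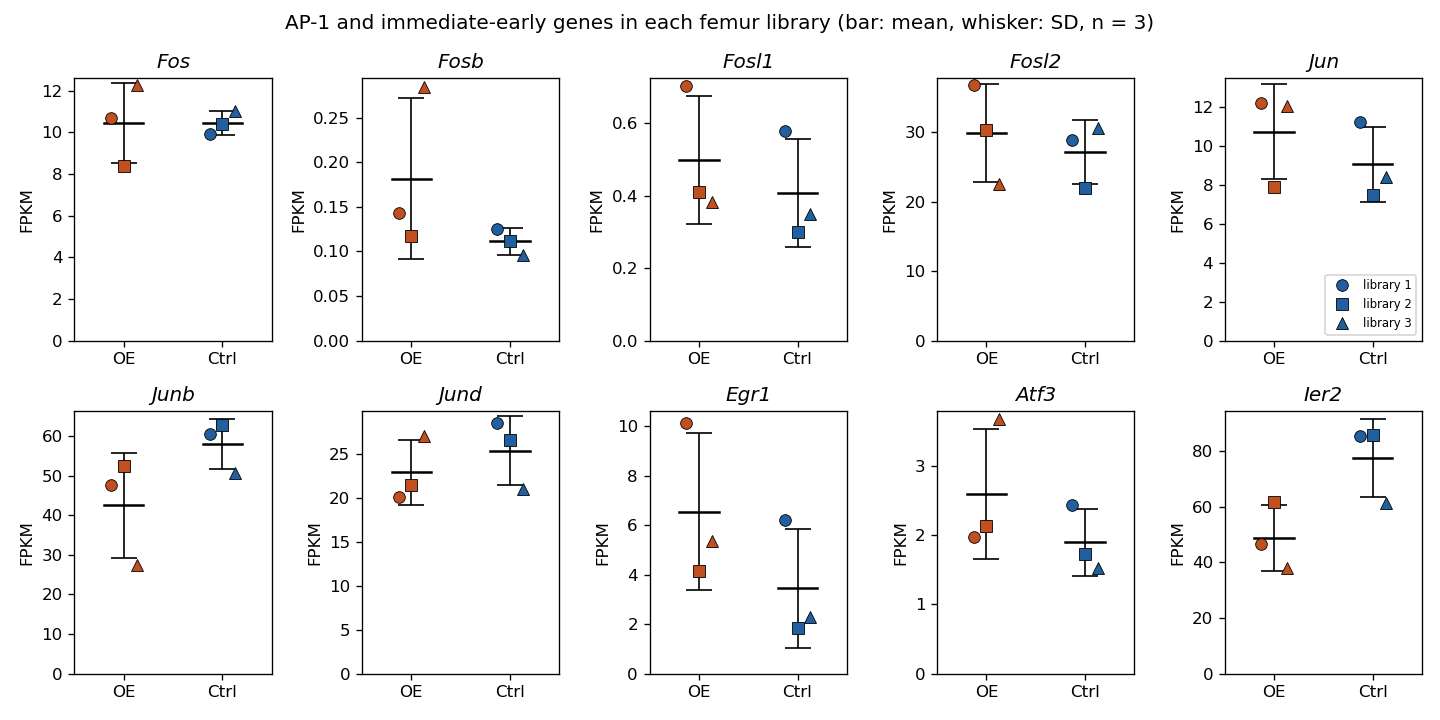
FPKM of each of the 10 genes in each library, with OE left of Ctrl, points for libraries 1 to 3 (circle, square, triangle), a bar for the mean and a whisker for the SD (n = 3 per group). The values of OE and Ctrl overlap in all 10 panels, and for Ier2 they touch at 61.6 FPKM in OE 2 and 61.4 FPKM in Ctrl 3.

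The 10 genes spanned a wide range of levels. Ier2 was the most abundant, with a mean of 63.2 FPKM over the 6 libraries, followed by Junb at 50.2, Fosl2 at 28.5, Jund at 24.1, Fos at 10.4, Jun at 9.90, Egr1 at 5.002, Atf3 at 2.25, Fosl1 at 0.453 and Fosb at 0.146 FPKM. In that order the library ranges of neighbours overlapped, except between Jund and Fos, between Atf3 and Fosl1, and between Fosl1 and Fosb. Fosb and Fosl1 were near the limit of the data, with about 15 to 42 and 27 to 48 fragments per library in OE, and about 15 to 19 and 20 to 43 in Ctrl, estimated from the longest annotated transcript.

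Among the Fos family, Fos itself, whose protein forms the classic AP-1 dimer with Jun, differed least between the groups. Fos (chromosome 12, 85473890 to 85477273, GRCm38, plus strand, 4 annotated transcripts with up to 4 exons) stood at 10.7, 8.402 and 12.3 FPKM in OE 1, 2 and 3, 9.93 FPKM in the library labelled Ctrl 1, and 10.4 and 11.04 FPKM in Ctrl 2 and Ctrl 3. The highest and the lowest of the 6 values were both in OE, so OE enclosed the whole Ctrl range. Averages were 10.4 ± 1.94 FPKM in OE and 10.4 ± 0.559 FPKM in Ctrl (SD, n = 3), and the log2 difference was -0.01 (SE 0.16, 95% confidence interval -0.40 to 0.37, limma adjusted p = 0.982). It was -0.046 (SE 0.19, limma adjusted p = 0.932) without the library labelled Ctrl 1. The sign of this difference turned with the scaling of the libraries, as given in the closing section. Fosl2, which encodes Fra-2 (chromosome 5, 32135801 to 32157842, plus strand), made up most of the family, at 36.8, 30.3 and 22.6 FPKM in OE 1, 2 and 3, 28.9 FPKM in the library labelled Ctrl 1, and 21.98 and 30.6 FPKM in Ctrl 2 and Ctrl 3. OE 1 was highest and Ctrl 2 lowest, and OE 3 lay beside Ctrl 2. The difference was 0.12 (SE 0.22, limma adjusted p = 0.853). It was 0.17 (SE 0.26, limma adjusted p = 0.790) without the library labelled Ctrl 1, -0.038 without OE 1 and -0.019 without Ctrl 2.

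The 2 scarce Fos family genes gave values only. Fosl1, which encodes Fra-1 (chromosome 19, 5447547 to 5455946, plus strand), stood at 0.702, 0.411 and 0.383 FPKM in OE 1, 2 and 3, 0.578 FPKM in the library labelled Ctrl 1, and 0.299 and 0.349 FPKM in Ctrl 2 and Ctrl 3. Its 2 highest libraries were OE 1 and the library labelled Ctrl 1. Exons of Fosl1 and Ccdc85b overlap, and Ccdc85b was at 14.03, 17.7 and 14.2 FPKM in OE and 24.9, 19.5 and 13.6 FPKM in Ctrl (first the library labelled Ctrl 1). Without a stated strand setting, reads of an overlap cannot be told apart. Fosb (chromosome 7, 19302696 to 19310051, minus strand) stood at 0.143, 0.117 and 0.284 FPKM in OE 1, 2 and 3, 0.125 FPKM in the library labelled Ctrl 1, and 0.112 and 0.0962 FPKM in Ctrl 2 and Ctrl 3. OE 3 held about 42 fragments and the 5 other libraries about 15 to 20.

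**Figure D2:**
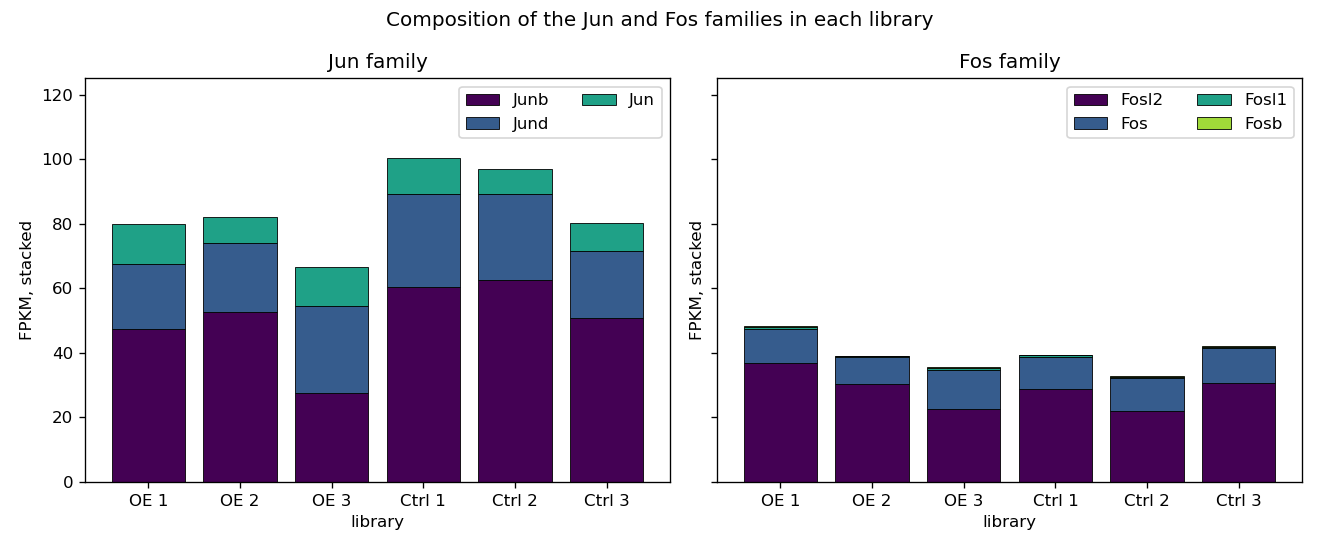
Stacked FPKM of the Jun family (left panel) and the Fos family (right panel) in each library, OE libraries left of Ctrl libraries. Junb is the largest part of every Jun family bar and Fosl2 of every Fos family bar, and OE 3 has the smallest share of Junb, at 41.2%. Jund is drawn as listed, without the overlapping antisense gene Gm11175.

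Within the Jun family, Junb averaged lower and Jun higher in OE, and neither passed the test. Junb, which can restrain or replace Jun in AP-1 dimers and is prominent in myeloid cells (chromosome 8, 84974484 to 84978718, minus strand), stood at 47.5, 52.5 and 27.5 FPKM in OE 1, 2 and 3, 60.5 FPKM in the library labelled Ctrl 1, and 62.7 and 50.7 FPKM in Ctrl 2 and Ctrl 3. Ctrl 2 was highest and OE 3 lowest, and OE 2 lay above Ctrl 3. The means were 42.5 ± 13.3 FPKM in OE and 58.0 ± 6.38 FPKM in Ctrl (SD, n = 3), a log2 difference of -0.49 (SE 0.26, 95% confidence interval -1.10 to 0.12, limma adjusted p = 0.561). Without the library labelled Ctrl 1 the difference was -0.45 (SE 0.30, limma adjusted p = 0.534), without OE 3 it was -0.21, and without OE 2 it was -0.66. An exon of Prdx2, a peroxiredoxin gene abundant in red cells, overlaps Junb on the other strand. Prdx2 stood at 85.7, 114 and 404 FPKM in OE and at 113, 212 and 122 FPKM in Ctrl (first the library labelled Ctrl 1), so it was highest in OE 3, where Junb was lowest.

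Jun, whose protein is the main activating partner in AP-1, stood at 12.2, 7.93 and 12.1 FPKM in OE 1, 2 and 3, 11.2 FPKM in the library labelled Ctrl 1, and 7.503 and 8.44 FPKM in Ctrl 2 and Ctrl 3. OE 1, OE 3 and the library labelled Ctrl 1 were above 11 FPKM and the 3 others below 9 FPKM, so the groups mixed. Means were 10.7 ± 2.44 FPKM in OE and 9.06 ± 1.95 FPKM in Ctrl (SD, n = 3), with a log2 difference of 0.22 (SE 0.22, limma adjusted p = 0.717) and, without the library labelled Ctrl 1, of 0.37 (SE 0.22, limma adjusted p = 0.477). A single exon holds the whole of Jun on chromosome 4 (95049034 to 95052222, minus strand), and the antisense gene Junos overlaps it.

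The ratio of Junb to Jun within a library does not depend on how the library is scaled. It was 3.89, 6.63 and 2.27 in OE, against 5.38 for the library labelled Ctrl 1, while Ctrl 2 and Ctrl 3 gave 8.36 and 6.01. The lowest ratios were those of OE 1 and OE 3 and the highest that of Ctrl 2, with OE 2 inside the Ctrl range. Junb formed 59.5%, 64.1% and 41.2% of the Jun family FPKM in OE and 60.3%, 64.7% and 63.3% in Ctrl (first the library labelled Ctrl 1). The whole Jun family summed to 76.1 ± 8.33 FPKM in OE and 92.4 ± 10.8 FPKM in Ctrl, and the Fos family to 41.0 ± 6.58 FPKM in OE and 38.1 ± 4.79 FPKM in Ctrl (SD, n = 3). The Jun family shares and sums take Jund as listed, without the overlapping antisense gene Gm11175. Gm11175 stood at 47.6 to 66.3 FPKM in OE and 49.9 to 74.9 FPKM in Ctrl. Without a stated strand setting its reads cannot be told from those of Jund, which leaves the share of Junb uncertain.

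Jund, the member least tied to stimulation and often counted as the growth-restraining Jun protein (chromosome 8, 70698949 to 70700616, plus strand, 1 exon), stood at 20.2, 21.5 and 27.04 FPKM in OE 1, 2 and 3, 28.6 FPKM in the library labelled Ctrl 1, and 26.6 and 20.96 FPKM in Ctrl 2 and Ctrl 3. Highest was the library labelled Ctrl 1, lowest was OE 1, and the groups overlapped. The log2 difference was -0.14 (SE 0.18, limma adjusted p = 0.774), and -0.055 (SE 0.20, limma adjusted p = 0.922) without the library labelled Ctrl 1. The antisense gene Gm11175 overlaps Jund on chromosome 8, and its FPKM was 2.36, 2.49 and 2.45 times Jund in OE and 2.62, 2.51 and 2.38 times Jund in Ctrl (first the library labelled Ctrl 1). These ratios were nearly constant, and without a stated strand setting the 2 genes cannot be told apart.

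Egr1 showed the widest spread of all members that were tested. Egr1, a zinc-finger factor switched on through serum response elements by growth factors and mechanical load (chromosome 18, 34859823 to 34864984, plus strand), stood at 10.2, 4.15 and 5.35 FPKM in OE 1, 2 and 3, 6.23 FPKM in the library labelled Ctrl 1, and 1.85 and 2.28 FPKM in Ctrl 2 and Ctrl 3. OE 1 was highest, 5.49 times Ctrl 2, and both Ctrl 2 and Ctrl 3 lay below the 4 other libraries. Means were 6.55 ± 3.18 FPKM in OE and 3.45 ± 2.41 FPKM in Ctrl (SD, n = 3). The log2 difference was 0.81 (SE 0.43, 95% confidence interval -0.20 to 1.82, limma adjusted p = 0.561). Without the library labelled Ctrl 1 it was 1.22 (SE 0.33, limma adjusted p = 0.112), in a comparison where limma called 4.9% of all genes, 518 higher and 79 lower in OE, and 0 of the 8 members. With array weights, which let limma weigh libraries by their fit, Egr1 was called at 1.37 (adjusted p = 0.0448), beside 8.18% of all genes called higher, in a fit that Ctrl 2 dominates. Leaving out OE 1 moved the difference of Egr1 to 0.49.

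Atf3, a stress-induced partner of Jun proteins (chromosome 1, 191170296 to 191218039, minus strand), stood at 1.97, 2.14 and 3.68 FPKM in OE 1, 2 and 3, 2.44 FPKM in the library labelled Ctrl 1, and 1.73 and 1.52 FPKM in Ctrl 2 and Ctrl 3. OE 3 was highest, and Ctrl 2 and Ctrl 3 were the lowest of the 6. The log2 difference was 0.29 (SE 0.23, limma adjusted p = 0.649), and it was 0.42 (SE 0.24, limma adjusted p = 0.462) without the library labelled Ctrl 1 and 0.087 without OE 3. About 143 to 284 fragments lay behind the OE values and about 121 to 192 behind the Ctrl values. Over all genes tested, 16.7% had Ctrl 2 and Ctrl 3 both below the 4 other libraries, beside 2 of the 8 members, Egr1 and Atf3. The untested Fosb and Fosl1 had the same order, though Fosb rested on about 15 fragments in each of OE 2, Ctrl 2 and Ctrl 3.

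Ier2, an immediate-early nuclear protein gene with a single exon on chromosome 8 (84661331 to 84662852, minus strand), had the smallest p of the members. It stood at 46.8, 61.6 and 37.9 FPKM in OE 1, 2 and 3, 85.4 FPKM in the library labelled Ctrl 1, and 85.9 and 61.4 FPKM in Ctrl 2 and Ctrl 3. All OE libraries lay at or below 61.6 FPKM, and the library labelled Ctrl 1 and Ctrl 2 lay far above them, while Ctrl 3 lay just below OE 2. The means were 48.7 ± 11.97 FPKM in OE and 77.6 ± 14.01 FPKM in Ctrl (SD, n = 3). The log2 difference was -0.67 (SE 0.23, 95% confidence interval -1.21 to -0.13, unadjusted p = 0.0225, limma adjusted p = 0.554), and -0.59 (SE 0.27, limma adjusted p = 0.338) without the library labelled Ctrl 1. With array weights Ier2 was called at -0.73 (limma adjusted p = 0.0476), beside 3.27% of all genes called lower. Unlike Egr1, Ier2 was as high in the library labelled Ctrl 1 as in Ctrl 2. Within libraries, the ratio of Ier2 to Egr1 was 4.61, 14.8 and 7.09 in OE, against 13.7 for the library labelled Ctrl 1, while Ctrl 2 and Ctrl 3 gave 46.5 and 26.9. Ctrl 2 and Ctrl 3 had the highest ratios, and OE 2 lay just above the library labelled Ctrl 1.

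**Figure D3:**
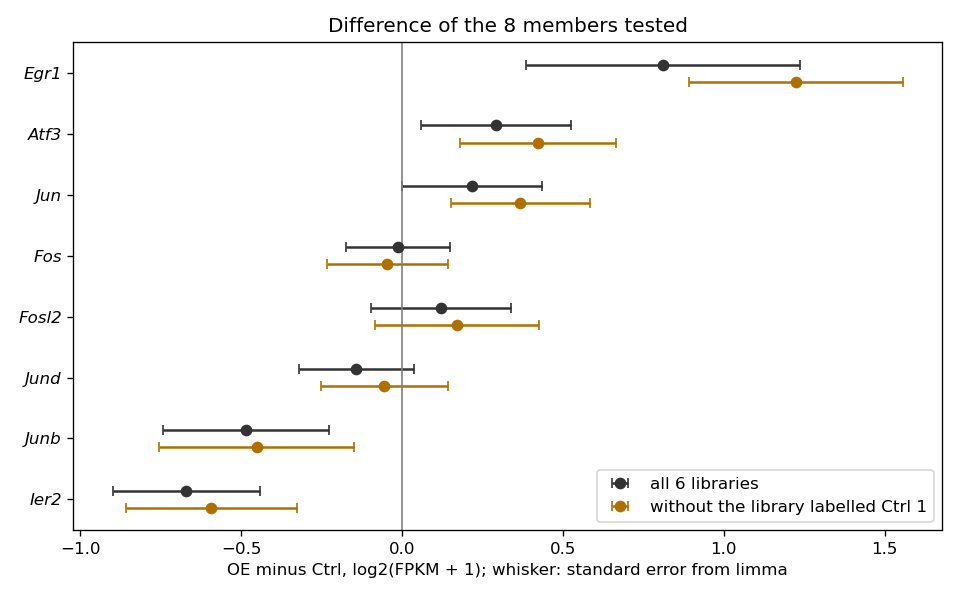
Difference OE minus Ctrl in log2(FPKM + 1) for the 8 members tested, with the standard error from limma as whiskers, with all 6 libraries and without the library labelled Ctrl 1. Differences run from 0.81 for Egr1 to -0.67 for Ier2 with all libraries, and none passed an adjusted p of 0.05 in either fit.

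Marker genes of several tissues were low in the same libraries as Egr1 and Atf3. Levels of a list are sums of FPKM over its genes. Counts of genes lowest in Ctrl 2 and Ctrl 3 stand beside 16.7% of all genes tested. For osteoblasts, where Bglap was most abundant, the sum was 4231 to 6812 in OE, 5875 for the library labelled Ctrl 1, while Ctrl 2 and Ctrl 3 gave 459.9 and 375, and 11 of 12 genes were lowest in Ctrl 2 and Ctrl 3. For cartilage, where Col2a1 led, it was 252 to 514 in OE, 323 for the library labelled Ctrl 1, while Ctrl 2 and Ctrl 3 gave 15.4 and 20.9, and all 7 genes were lowest in those 2. Skeletal muscle, led by Tnnt3, summed to 1125 to 1510 in OE, 1284 for the library labelled Ctrl 1, while Ctrl 2 and Ctrl 3 gave 209.7 and 324. The bone-resorbing osteoclast list, led by Mmp9, summed to 1473 to 3819 in OE, 3272 for the library labelled Ctrl 1, while Ctrl 2 and Ctrl 3 gave 1167 and 1142, with 5 of the 8 genes tested lowest in Ctrl 2 and Ctrl 3. Mmp9 itself was not among those 5 and had a log2 difference of -0.11 (SE 0.45, limma adjusted p = 0.944). Osteocyte genes summed to 268 to 732 in OE and 499.8 for the library labelled Ctrl 1, with 144 and 191 for Ctrl 2 and Ctrl 3. In that list 5 of the 7 genes tested were lowest in Ctrl 2 and Ctrl 3, and Pdpn was listed at 0 in every library. Its most abundant gene, Cd44, which many blood cells also express, did not have that order, at 132, 107 and 80.5 FPKM in OE 1, 2 and 3, 93.4 FPKM in the library labelled Ctrl 1, and 95.4 and 134 FPKM in Ctrl 2 and Ctrl 3. The part of tissue makeup in these values was not tested.

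Junb and Ier2 were lowest in OE 3, the library with the least neutrophil RNA. The neutrophil list, led by S100a8, summed to 108600, 168400 and 59980 FPKM in OE and to 143700, 145000 and 105400 FPKM in Ctrl (first the library labelled Ctrl 1), and all 14 genes were lowest in OE 3. Erythroid genes, led by Hbb-bs, summed to 1462, 2406 and 45530 FPKM in OE and to 1779, 10120 and 5115 FPKM in Ctrl in the same order, and all 11 were highest in OE 3. B-cell genes, led by Cd79a, summed to 437 FPKM in OE 3 and 54.8 to 97.6 FPKM in the other libraries, and 9 of 9 were highest in OE 3, as were 7 of 7 stromal and adipocyte genes led by Cxcl12. Fos, Fosb and Atf3 were also highest in OE 3. Over all genes tested, 16.4% were highest and 28.2% lowest in OE 3, beside 2 and 2 of the 8 members. The monocyte and macrophage list summed to 1307 to 1758 FPKM in OE and 1609 to 2042 FPKM in Ctrl, mostly from Ly6c2. Of its 12 genes, 5 were highest in OE 3 (C1qa, C1qb, C1qc, Mrc1 and Vcam1) and 5 lowest there. T and NK cell genes summed to 85.9 to 143 FPKM in OE and 136 to 201 FPKM in Ctrl, mostly from Nkg7. Of the 7 tested, 4 (Cd3e, Cd3d, Cd3g and Cd8a) were highest in Ctrl 2 and Ctrl 3, beside 14.2% of all genes tested. Endothelial genes, led by Pecam1, summed to 99.0 to 131 FPKM in OE and 94.0 to 115 FPKM in Ctrl. The part of these cells in the members' values was not tested.

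**Figure D4:**
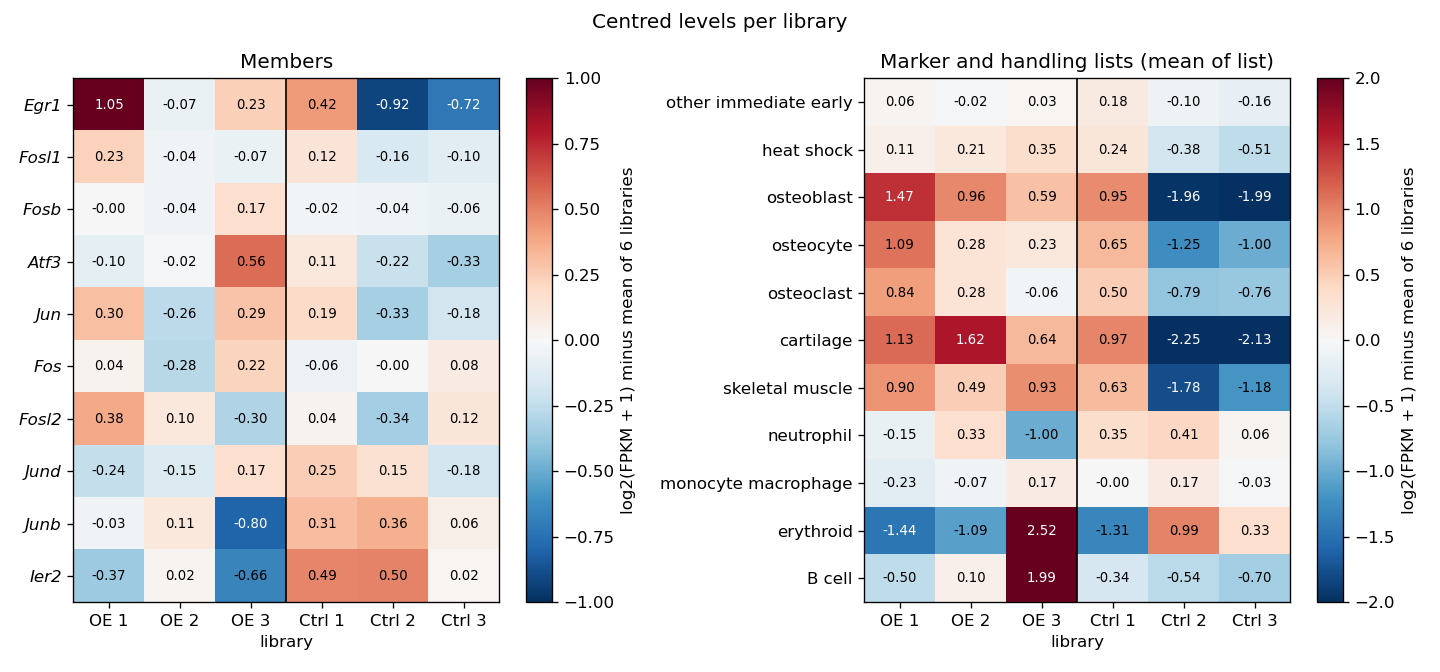
Level of each of the 10 genes (left) and mean level of 11 gene lists (right) in each library, as log2(FPKM + 1) minus the mean of the 6 libraries, with OE libraries left of Ctrl libraries. Egr1 is at -0.92 and -0.72 in Ctrl 2 and Ctrl 3, where osteoblast, cartilage and muscle lists are also lowest, and Junb and Ier2 are at -0.80 and -0.66 in OE 3, where the neutrophil list is lowest.

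The list of other immediate-early genes held 38 genes, of which 36 had a row and 33 were tested. Positive differences were found for 12 and negative ones for 21, with a median of -0.07 beside -0.04 over all genes, and limma called 0. Every OE value lay above every Ctrl value for Nr4a2, an orphan nuclear receptor gene, and below for 8 genes, beside 4.59% and 8.97% of all genes tested. Cebpb, a factor of myeloid cells and adipocytes, had the smallest p of the list, with 99.8, 129.99 and 100.01 FPKM in OE 1, 2 and 3, 193 FPKM in the library labelled Ctrl 1, and 199 and 162 FPKM in Ctrl 2 and Ctrl 3. Every OE value was below every Ctrl value, a log2 difference of -0.75 (SE 0.18, limma adjusted p = 0.554). Klf2, a factor of endothelium and lymphocytes, stood at 43.8, 55.7 and 30.4 FPKM in OE 1, 2 and 3, 90.2 FPKM in the library labelled Ctrl 1, and 73.6 and 63.2 FPKM in Ctrl 2 and Ctrl 3. It too was lower in every OE library (log2 difference -0.82, SE 0.25, limma adjusted p = 0.554). Nr4a2 stood at 4.45, 2.48 and 2.53 FPKM in OE 1, 2 and 3, 2.26 FPKM in the library labelled Ctrl 1, and 0.598 and 0.738 FPKM in Ctrl 2 and Ctrl 3. Nearest to OE was the library labelled Ctrl 1, and the log2 difference was 0.96 (SE 0.33, limma adjusted p = 0.554). Ccn1, a matricellular gene that responds to load and YAP activity, stood at 40.3, 21.8 and 59.6 FPKM in OE 1, 2 and 3, 33.3 FPKM in the library labelled Ctrl 1, and 6.15 and 6.94 FPKM in Ctrl 2 and Ctrl 3. Ctrl 2 and Ctrl 3 were far below the 4 others (log2 difference 1.62, SE 0.65, limma adjusted p = 0.554).

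Without the library labelled Ctrl 1, limma called 4 of these 33 genes, all higher in OE: Id3, Ccn2, Ccn1 and Nr4a2, beside 4.25% of all genes called higher. Ccn1 differed by 2.35 (SE 0.39, limma adjusted p = 0.026), Ccn2 by 1.65 (SE 0.27, adjusted p = 0.0249), Id3 by 2.54 (SE 0.30, adjusted p = 0.0102) and Nr4a2 by 1.28 (SE 0.25, adjusted p = 0.0404). Ccn1, Ccn2, Id3 and Nr4a2 were, like Egr1, lower in Ctrl 2 and Ctrl 3 than in the other 4 libraries.

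Heat-shock genes, which also respond to handling and temperature, were examined beside the immediate-early genes. Of 13 listed, 12 had a row and were tested, and limma called 0. Among these 12, 11 had a positive difference, with a median of 0.26, beside 43.7% positive and a median of -0.04 over all genes tested. For 7 of the 12, Ctrl 2 and Ctrl 3 both lay below the other libraries, beside 16.7% of all genes. Hsph1, a co-chaperone gene, stood at 18, 17.7 and 23.4 FPKM in OE 1, 2 and 3, 17.4 FPKM in the library labelled Ctrl 1, and 7.71 and 8.27 FPKM in Ctrl 2 and Ctrl 3. Every OE value was above every Ctrl value (log2 difference 0.85, SE 0.30, limma adjusted p = 0.554). Hspa1b, an inducible HSP70 gene, is uncertain because Hspa1a is nearly identical to it. It stood at 4.33, 3.099 and 42.9 FPKM in OE 1, 2 and 3, 3.65 FPKM in the library labelled Ctrl 1, and 0.649 and 0.768 FPKM in Ctrl 2 and Ctrl 3. OE 3 was far above the other libraries, and the log2 difference was 2.05 (SE 0.92, limma adjusted p = 0.554). Hspb1, a small heat-shock protein gene, stood at 15.2, 8.82 and 9.92 FPKM in OE 1, 2 and 3, 14.3 FPKM in the library labelled Ctrl 1, and 3.14 and 3.17 FPKM in Ctrl 2 and Ctrl 3, and Bag3, an HSP70 co-chaperone gene, at 12.5, 11.02 and 10.9 FPKM in OE 1, 2 and 3, 11.9 FPKM in the library labelled Ctrl 1, and 7.91 and 8.22 FPKM in Ctrl 2 and Ctrl 3. Without the library labelled Ctrl 1, Hsph1 at 1.19 (SE 0.18, limma adjusted p = 0.0187) and Hspb1 at 1.53 (SE 0.24, adjusted p = 0.0209) were called higher in OE, 2 of the 12 genes, beside 4.25% of all genes called higher. The part of handling in these values was not tested.

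Other leucine-zipper genes, only some of which encode partners of the Fos and Jun proteins, showed no call. Of 14 listed, 13 had a row and 11 were tested, 5 with a positive and 6 with a negative difference. The median was -0.01, beside 43.7% positive and a median of -0.04 over all genes tested. Maff, a small Maf gene, stood at 2.73, 2.12 and 3.05 FPKM in OE 1, 2 and 3, 2.36 FPKM in the library labelled Ctrl 1, and 1.47 and 1.58 FPKM in Ctrl 2 and Ctrl 3 (log2 difference 0.38, SE 0.19, limma adjusted p = 0.561). Crem, a cyclic-AMP response gene, stood at 6.29, 5.497 and 8.85 FPKM in OE 1, 2 and 3, 6.97 FPKM in the library labelled Ctrl 1, and 4.53 and 3.75 FPKM in Ctrl 2 and Ctrl 3 (0.39, SE 0.25, adjusted p = 0.588). In both, as in Atf3, OE 3 was highest and Ctrl 2 and Ctrl 3 lowest. Mafg, another small Maf gene, stood at 55.3, 57.4 and 53.5 FPKM in OE 1, 2 and 3, 59.9 FPKM in the library labelled Ctrl 1, and 64.5 and 63.1 FPKM in Ctrl 2 and Ctrl 3, with no overlap between the groups. Batf, a partner of Jun proteins in immune cells, stood at 11.5, 19.3 and 9.04 FPKM in OE 1, 2 and 3, 18.1 FPKM in the library labelled Ctrl 1, and 18.4 and 13.03 FPKM in Ctrl 2 and Ctrl 3. Their log2 differences were -0.17 (SE 0.12, limma adjusted p = 0.622) and -0.35 (SE 0.28, adjusted p = 0.653).

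Signalling genes upstream of the immediate-early response gave no call either, with 12 positive and 9 negative among 21 tested of 23 listed. Their median was 0.01, beside 43.7% positive and a median of -0.04 over all genes tested. Srf, the serum response factor that binds CArG boxes, stood at 22.7, 25.9 and 18.5 FPKM in OE 1, 2 and 3, 27.4 FPKM in the library labelled Ctrl 1, and 29.9 and 27.5 FPKM in Ctrl 2 and Ctrl 3, and every OE value was below every Ctrl value (log2 difference -0.34, SE 0.16, limma adjusted p = 0.554). Rps6ka1, a kinase gene of the ERK pathway, stood at 145, 182 and 100.2 FPKM in OE 1, 2 and 3, 242 FPKM in the library labelled Ctrl 1, and 250.1 and 229 FPKM in Ctrl 2 and Ctrl 3. Crtc2, a CREB coactivator gene, stood at 21.99, 22.2 and 17.8 FPKM in OE 1, 2 and 3, 27.4 FPKM in the library labelled Ctrl 1, and 25.6 and 25.7 FPKM in Ctrl 2 and Ctrl 3. These too did not overlap between the groups (-0.79, SE 0.24, and -0.34, SE 0.14, both with a limma adjusted p of 0.554). Spry2, a feedback inhibitor, stood at 5.21, 4.62 and 4.66 FPKM in OE 1, 2 and 3, 5.68 FPKM in the library labelled Ctrl 1, and 6.39 and 5.74 FPKM in Ctrl 2 and Ctrl 3 (-0.25, SE 0.13, limma adjusted p = 0.561). All OE values were below all Ctrl values in 5 of the 21 genes, beside 8.97% of all genes tested.

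Of genes described as AP-1 targets in bone and osteoclasts, 7 of 15 tested were lowest in Ctrl 2 and Ctrl 3, beside 16.7% of all genes tested. Of 18 listed, 17 had a row and 15 were tested, with 10 positive and 5 negative differences, and limma called 0. Their median was 1.05, beside 43.7% positive and a median of -0.04 over all genes tested. Col1a2, a collagen gene counted among the positives, had 4029 and 3236 FPKM in OE 2 and OE 3 and 196 and 241 FPKM in Ctrl 2 and Ctrl 3. OE 1 and the library labelled Ctrl 1 list it at 0 despite their high osteoblast sums, which makes its difference uncertain. Without Col1a2, left out after its values were seen, 9 were positive and 5 negative, with a median of 0.84. Mmp13, the collagenase gene whose promoter carries a known AP-1 site, stood at 396, 253 and 132 FPKM in OE 1, 2 and 3, 243 FPKM in the library labelled Ctrl 1, and 57.5 and 58.8 FPKM in Ctrl 2 and Ctrl 3 (log2 difference 1.33, SE 0.64, limma adjusted p = 0.558). Timp1, a metalloproteinase inhibitor, stood at 65.7, 50.8 and 29.1 FPKM in OE 1, 2 and 3, 54.5 FPKM in the library labelled Ctrl 1, and 5.403 and 3.91 FPKM in Ctrl 2 and Ctrl 3 (1.97, SE 0.89, adjusted p = 0.554). Ctrl 2 and Ctrl 3 were the lowest 2 libraries for both genes. Tgfb1, a growth factor gene, stood at 95.2, 98.1 and 111 FPKM in OE 1, 2 and 3, 111 FPKM in the library labelled Ctrl 1, and 148 and 138 FPKM in Ctrl 2 and Ctrl 3 (-0.37, SE 0.17, limma adjusted p = 0.554). The osteocalcin gene Bglap had values of 2711, 3254 and 1891 FPKM in OE 1, 2 and 3, 2552 FPKM in the library labelled Ctrl 1, and 91.8 and 58.8 FPKM in Ctrl 2 and Ctrl 3 (3.40, SE 1.33, limma adjusted p = 0.554). Without the library labelled Ctrl 1, 6 of the 15 were called higher in OE by limma, namely Bglap, Timp1, Spp1, Ctsk, Acp5 and Mmp14, beside 4.25% of all genes called higher and 0 of the 8 members called. This list shares genes with the osteoblast and osteoclast lists, so it is not separate from tissue makeup.

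Genes whose pattern was nearest to that of Fos were found by the root mean square distance between centred log2(FPKM + 1) profiles over the 6 libraries, among 8712 genes with a mean of at least 5 FPKM. They were Trak1, Mios, Plpp3, Maco1 and St3gal2, at distances of 0.06 to 0.07. Trak1 stood at 14.01, 11.8 and 15.5 FPKM in OE, 12.8 FPKM in the library labelled Ctrl 1, and 13.6 and 15.6 FPKM in Ctrl 2 and Ctrl 3, with OE 2 lowest as for Fos. None of the 5 is on the immediate-early list. Fos spanned only 1.46 times over the libraries, so nearness to so flat a profile does not tell of shared control. Nearest to the mean profile of the 10 members were Thra, Tsc2, Gne, Erf and Ccdc91, at 0.04 to 0.05. That mean profile was nearly flat, at 0.13, -0.06 and -0.02 in OE, 0.19 for the library labelled Ctrl 1, while Ctrl 2 and Ctrl 3 gave -0.10 and -0.13. Members that were high in a library stood beside members that were low in it.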

How the data were processed

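Paired-end RNA-seq was measured in 6 mouse femur libraries, grouped by their titles. Per the file headers, the deposited values are FPKM per gene; the mm10 build and 3 tools, DESeq, TopHat2 and Cufflinks, are listed per the submitters' processing notes. Roles, versions and the strand setting of those tools were not given there. FPKM as made by the authors is relative to each library's total, so abundant genes lower all others. Of 22824 rows, 21172 matched a GENCODE M21 symbol on GRCm38. Depth was estimated: in single-transcript genes over 2 kb, FPKM times length moved in steps, taken as 1 fragment, and 86.7% to 91.2% of values up to 5 steps lay within 0.15 of a whole step.

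The files hold FPKM and no counts, so limma 3.58.1 (R 4.3.3) was fitted to log2(FPKM + 1) (eBayes with trend; at least 1 FPKM in at least 3 libraries; Benjamini-Hochberg over 12177 genes; threshold 0.05), checked on simulated data. Differences on this scale understate changes of low genes. Other pseudocounts, filters, scalings, weights, a replicate block and left-out libraries were tried. Tables and plots used Python 3.11.15, numpy 2.4.6, pandas 2.3.3 and matplotlib 3.10.9. The members and lists were chosen with earlier results of these data known. Genes named are the 10 members, Wnt7b, the 4 genes with the smallest p in each of 5 lists, the 5 nearest in pattern to Fos and to the members' mean, and the most abundant gene of each marker list; others were named after their values were seen. Listed genes with no row were not analysed here, and genes listed at 0 in any library were left out of list sums.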

Additional observations from a re-analysis of the deposited data

How the results depend on the processing

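For the 8 members, 111 of 119 recomputed differences kept their direction and their side of the threshold, over another pseudocount (0.1), no filter or one of 5 FPKM, 2 other scalings, limma without trend, array weights, the replicate number as a block, and libraries left out. The filters, limma without trend and the replicate block leave the difference itself unchanged, so its direction could not turn there. Any gene at all was called only with array weights, without the library labelled Ctrl 1, and without it and OE 3 together. In the other settings a member staying uncalled therefore says little. Fos turned positive with trimmed-mean scaling (0.030), with scaling without neutrophil and erythroid list genes (0.074), and without OE 2 (0.12) or Ctrl 3 (0.024), and ran from -0.13 to 0.12 with 1 library left out. Fosl2 turned negative without OE 1 (-0.038) or Ctrl 2 (-0.019), and ran from -0.038 to 0.30. With array weights, 1394 genes and 2 members were called by limma, Egr1 at 1.37 (adjusted p = 0.0448) and Ier2 at -0.73 (adjusted p = 0.0476); these weights were 5.82 for Ctrl 2 and 0.414 to 1.35 for the other libraries, so 1 library carried most of that fit. Over all settings the adjusted p ran up to 1 for Egr1 and Ier2 without Ctrl 2, as it did for all genes in that fit. There Egr1 differed by 0.55 and Ier2 by -0.59, in the same direction as with all libraries. Leaving out 1 library gave 0 to 597 genes called, with 597 only without the library labelled Ctrl 1, and 0 members called. The median member difference was then -0.036 to 0.11 (0.054 with all) and the Wnt7b difference 0.237 to 0.963 (0.654 with all). The log2 difference of the summed member level was -0.38 to -0.177 (-0.289 with all). Ier2 and Junb together made up 43.9% to 60.4% of the summed FPKM in OE and 59.8% to 67.8% in Ctrl, so that level rests largely on these 2 genes. Without the library labelled Ctrl 1 and OE 3 together, 1388 genes and 0 members were called and the summed level differed by -0.108; the cause was not tested. Replicate numbers were not taken as pairing, and the correlations of deviations did not settle it. Same-numbered libraries correlated at 0.44, 0.09 and 0.31, and differently numbered ones at -0.62 to 0.42. OE 2 matched the library labelled Ctrl 1 better (0.14) than Ctrl 2, and OE 3 matched Ctrl 2 better (0.42) than Ctrl 3. With the replicate block 0 genes and 0 members were called, while 1170 genes were higher and 627 lower at an unadjusted limma p under 0.05. Egr1 then had a limma SE of 0.15 (unadjusted p = 0.00245, adjusted p = 0.191) and Ier2 of 0.15 (unadjusted p = 0.00656, adjusted p = 0.207). The SE of Jund and Atf3 rose instead, to 0.20 and 0.24. Fosb and Fosl1 are limited by depth, at 15 to 48 estimated fragments per library.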

Other observations

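Of the 33 other immediate-early genes tested, 7 were highest and 12 lowest in OE 3, beside 16.4% and 28.2% of all genes tested. Ppp1r15a and Dusp1, chosen after their values were seen, are 2 of those highest there. Ppp1r15a, a stress-induced phosphatase regulator gene also known as Gadd34, stood at 8.33, 8.83 and 67.1 FPKM in OE 1, 2 and 3, 10.6 FPKM in the library labelled Ctrl 1, and 38.5 and 25.0 FPKM in Ctrl 2 and Ctrl 3. Its order over the libraries was that of the erythroid sums at the top, with OE 3, Ctrl 2 and Ctrl 3 the 3 highest in both. Dusp1, a phosphatase that switches off MAP kinases, stood at 28.3, 22.0 and 66.8 FPKM in OE 1, 2 and 3, 37.8 FPKM in the library labelled Ctrl 1, and 45.9 and 52.4 FPKM in Ctrl 2 and Ctrl 3. Fos, which is often induced together with Dusp1, spanned only 1.46 times from its lowest to its highest library, and Egr1 was lowest in Ctrl 2 and Ctrl 3, where Dusp1 and Ppp1r15a were above OE 1 and OE 2. These genes did not share one order over the 6 libraries.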
